A study of Mus musculus with 9 samples.

Results

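The genes described here are 34 genes of sterol and fatty acid synthesis, taken by symbol from a list of SREBP factors, enzymes from mevalonate to cholesterol, and enzymes of lipogenesis and desaturation. All 34 were found among the 32594 genes of the deposited count table, and all 34 passed the filter on low counts that left 15873 genes for testing. They fall into 5 regulators, 18 genes of the sterol arm and 11 genes of the fatty acid arm. RNA came from hindlimb skeletal muscle in 4 libraries of SMN delta 7 mice, called SMA here, and 5 libraries of wild type (WT) mice. Both groups carry the FVB/N strain background. SMN delta 7 mice model spinal muscular atrophy, in which a shortage of the SMN protein leads to loss of motor neurons and muscle wasting. The labels give no age, litter, allele structure or named muscle. They do not say that each library is a separate animal, so p-values reflect variation among these libraries, part of which may be technical.

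Cells make cholesterol from acetyl-CoA through mevalonate, farnesyl diphosphate, squalene and lanosterol, and make fatty acids from the same precursor through malonyl-CoA. Both routes are under the transcription factors SREBP-1, encoded by Srebf1 and known mainly for lipogenic targets, and SREBP-2, encoded by Srebf2 and known mainly for sterol targets. SCAP carries the SREBP precursors from the endoplasmic reticulum to the Golgi, where they are cleaved, and INSIG proteins hold the complex back when sterols are plentiful. In muscle, as in liver, Srebf1 is also a known target gene of the liver X receptors (LXR), which sense oxysterols.

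Depth ranged from 24917665 to 35087722 counts per library, and counts of the members in a library ranged from 89 for Stard4 to 5419 for Scd2. Smn1, the gene that checks the labels, had 1.40 to 2.72 CPM (counts-per-million after TMM scaling) in SMA and 11.1 to 13.8 CPM in WT. The muscle genes Acta1, Ckm, Ttn, Des, Myh4 and Tnnt3 summed to 62172 to 75162 CPM in SMA and 114154 to 160096 CPM in WT, so muscle markers were abundant in every library. By edgeR 5 of these 6 fell, beside 27.2% of all genes tested, and the part of this in the members' values was not tested. Myh4, the most abundant of them, averaged 23520 CPM in SMA and 55384 CPM in WT. On the second principal component SMA 3 lay at -43.4 and the other SMA libraries at 14.6 to 15.4, and WT 5 lay at the far end of the WT range at 18.2. Y-linked genes were expressed in 1 of 4 SMA and 4 of 5 WT libraries, so sex was unbalanced between the groups. Each sex had only 1 library in 1 of the groups, too few for a comparison within males or females. In such bulk samples fewer cells of a type and less RNA per cell cannot be told apart.

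Promoters of member genes are shown here because the letters recognised by known regulators of these routes can be read in them. Sequences are the 250 bases before a RefSeq transcription start on GRCm38.p6, in the direction of the gene, and 27 of the 34 members matched the RefSeq promoter table. Capitals mark matches on either strand to CCAAT or its complement ATTGG, which the factor NF-Y binds, to TCACNCCAC, a form of the sterol regulatory element that SREBPs bind, and in Srebf1 to GGTTACTNG, letters shared by the LXR response elements described in its promoter. The Srebf1 and Fasn promoters belong to the regulator and the fatty acid enzyme that rose most, Mvd and Lss to sterol enzymes that rose, Mvk to one that fell, and Hmgcs1 to one with no call.
Srebf1, chr11:60210472-60210721, minus strand: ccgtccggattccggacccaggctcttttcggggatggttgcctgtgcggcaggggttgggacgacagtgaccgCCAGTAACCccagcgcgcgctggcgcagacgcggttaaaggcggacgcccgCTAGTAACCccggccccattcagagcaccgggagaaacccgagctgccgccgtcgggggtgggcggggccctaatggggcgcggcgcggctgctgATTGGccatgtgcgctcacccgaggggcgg
Fasn, chr11:120824548-120824797, minus strand: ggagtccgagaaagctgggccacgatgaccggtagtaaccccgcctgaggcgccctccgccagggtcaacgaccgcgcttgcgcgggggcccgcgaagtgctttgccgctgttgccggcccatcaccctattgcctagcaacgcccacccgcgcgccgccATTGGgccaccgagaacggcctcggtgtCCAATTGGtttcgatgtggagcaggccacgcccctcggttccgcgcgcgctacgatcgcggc
Mvd, chr8:122443423-122443672, minus strand: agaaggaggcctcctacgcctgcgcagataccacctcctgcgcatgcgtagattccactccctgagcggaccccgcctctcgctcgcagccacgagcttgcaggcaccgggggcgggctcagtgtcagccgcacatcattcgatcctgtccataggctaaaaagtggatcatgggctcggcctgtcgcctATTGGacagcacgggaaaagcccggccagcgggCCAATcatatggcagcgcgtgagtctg
Lss, chr10:76531355-76531604, plus strand: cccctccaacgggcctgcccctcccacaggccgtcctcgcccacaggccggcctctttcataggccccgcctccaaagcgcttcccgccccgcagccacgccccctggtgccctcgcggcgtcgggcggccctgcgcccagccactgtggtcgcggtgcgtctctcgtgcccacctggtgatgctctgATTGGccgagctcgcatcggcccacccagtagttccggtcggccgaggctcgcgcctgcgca
Mvk, chr5:114444019-114444268, plus strand: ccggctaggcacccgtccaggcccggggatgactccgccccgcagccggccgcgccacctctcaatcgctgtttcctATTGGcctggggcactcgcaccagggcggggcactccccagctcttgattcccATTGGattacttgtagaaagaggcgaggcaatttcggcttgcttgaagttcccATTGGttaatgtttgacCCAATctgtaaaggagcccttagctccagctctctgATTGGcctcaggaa
Hmgcs1, chr13:119690101-119690350, plus strand: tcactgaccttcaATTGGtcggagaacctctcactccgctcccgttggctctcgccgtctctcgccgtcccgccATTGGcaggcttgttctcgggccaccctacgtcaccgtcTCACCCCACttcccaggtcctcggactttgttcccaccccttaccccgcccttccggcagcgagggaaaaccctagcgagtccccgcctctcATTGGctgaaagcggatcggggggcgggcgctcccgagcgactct

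Over 300 bases, from 250 before to 50 after the start, CCAAT was found in at least 1 promoter of 14 of 14 sterol genes in the table, 5 of 8 fatty acid genes and 4 of 5 regulators. Of all 27025 genes with a listed promoter, 41.1% held it. TCACNCCAC was found in 1 of the 27 member genes, Hmgcs1, and in 1.44% of all genes. GGGCGG, bound by Sp1, was found in 22 of 27 members and 38.2% of all genes, and the E-box CACGTG in 6 of 27 members and 8.09% of all genes. GGTTACTNG, chosen with the Srebf1 sequence in view, was found in 1 of 27 members, Srebf1, and 0.662% of all genes. The 2 matches lay 176 and 125 bases before the most downstream of the 3 listed Srebf1 starts. The printed Fasn promoter holds letters that differ from GGTTACTNG only at its last base, and these were not counted. LXR elements with other letters were not searched for, so the count does not show that other members lack one. The shares of all genes include genes that did not pass the filter on low counts, while every member passed it. A match describes letters, not binding. The promoters printed for Mvd and Lss, which rose, and for Mvk, which fell, all held CCAAT.

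Srebf1 was the member that rose most and Scap also rose, while Srebf2, Insig1 and Insig2 had no call. Srebf1 (chromosome 11, 60199089 to 60222581, minus strand, mm10) had 119, 108, 85.4 and 119 CPM in SMA 1 to 4 and 30.9, 29.9, 31.8, 25.0 and 23.6 CPM in WT 1 to 5. Every SMA library lay above every WT library. It rose by 1.93 ± 0.12 on the log2 scale (SE), or 3.82-fold, with a Benjamini-Hochberg adjusted p = 2.87e-07 from the quasi-likelihood test of edgeR, used for all such values here. SMA 3 was the lowest SMA library, and over the 18 alternative settings its log2 fold change stayed between 1.87 and 2.16. Counts are per gene, so the SREBP-1a and SREBP-1c transcripts, which start at different first exons, could not be told apart.

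Srebf2 had 31.1, 26.8, 28.1 and 31.5 CPM in SMA and 33.0, 29.7, 32.0, 24.8 and 29.6 CPM in WT, and the ranges overlapped. Its log2 fold change was -0.02 ± 0.092 (edgeR adjusted p = 0.857), and it took the opposite sign under 4 of 18 settings. The count ratio of Srebf1 to Srebf2, which needs no scaling, was 3.84, 4.02, 3.04 and 3.78 in SMA and 0.936, 1.004, 0.994, 1.008 and 0.797 in WT. The ratio was 3.86-fold higher in SMA (p = 0.00794 by a two-sided exact permutation test, the smallest it can give here, and 0.0317 adjusted over 4 ratios).

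Scap had 55.9, 51.4, 43.7 and 49.6 CPM in SMA and 32.3, 33.5, 35.9, 32.3 and 33.4 CPM in WT, with no overlap. It rose by 0.58 ± 0.080 (edgeR adjusted p = 7.95e-05). The annotated gene 5830462I19Rik on the opposite strand shares 13.2% of its exon bases, and sharing of reads was not tested. Insig1, itself a known SREBP target, had 13.9, 13.1, 16.6 and 11.4 CPM in SMA and 12.9, 13.5, 12.0, 12.1 and 12.7 CPM in WT. Its log2 fold change was 0.12 ± 0.11 (edgeR adjusted p = 0.361). Insig2 had 39.4, 42.9, 43.2 and 43.4 CPM in SMA and 44.3, 43.7, 45.3, 45.4 and 55.6 CPM in WT. Its ranges did not overlap, with SMA lower, but the log2 fold change of -0.15 ± 0.084 did not pass (edgeR adjusted p = 0.148). The count ratio of Insig1 to Insig2 averaged 0.326 ± 0.0534 in SMA and 0.272 ± 0.0304 in WT (SD, n = 4 and 5; exact permutation test, p = 0.143, adjusted p = 0.190). Of the 5 regulators, 2 rose and 0 fell by edgeR, with 0 falls also at an unadjusted p under 0.05 and by DESeq2 and limma-voom. These calls are read against all 15873 genes tested, of which 54.9% passed, 27.7% rising and 27.2% falling.

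**Figure D1:**
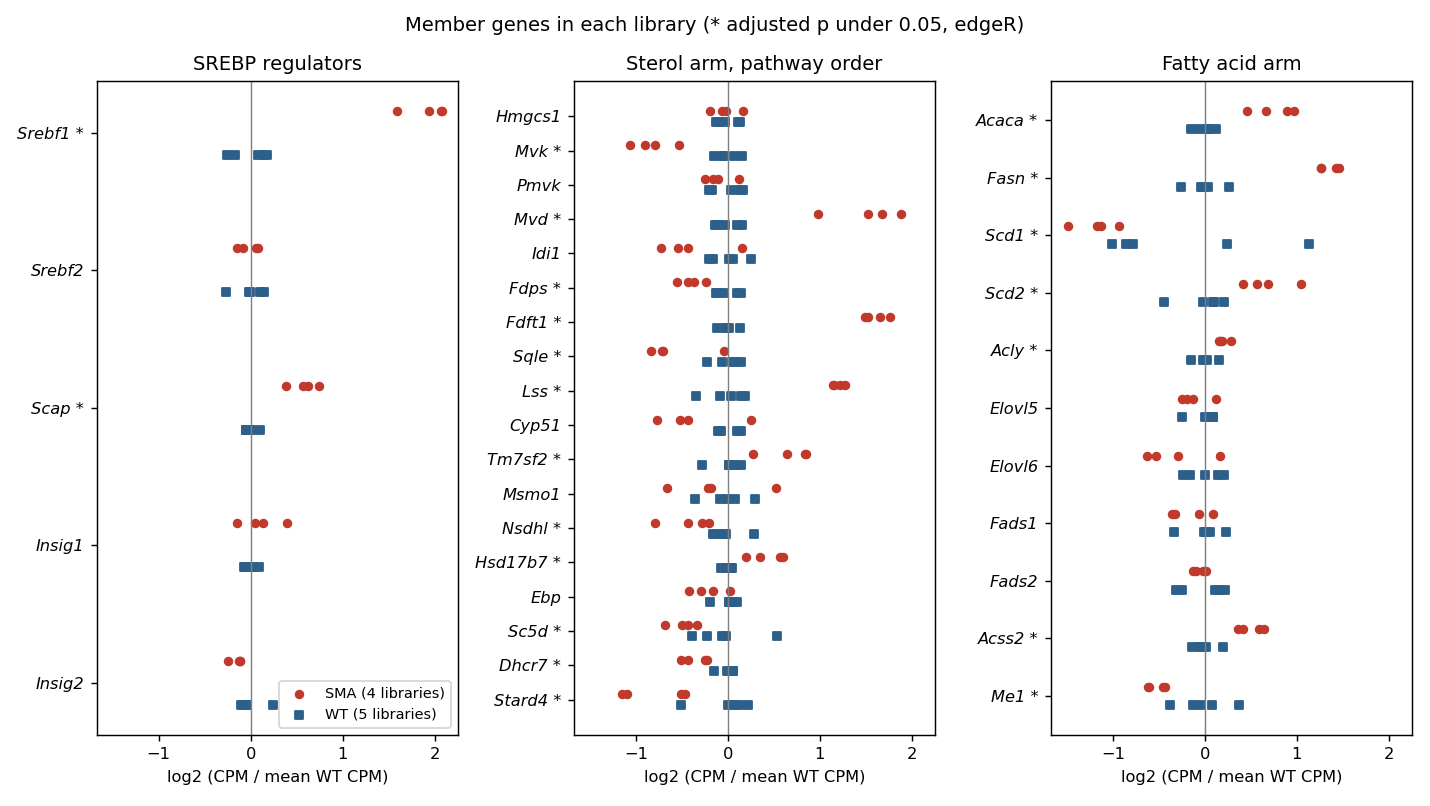
Each point is a library's CPM of a member gene divided by its mean in WT, on a log2 axis, with SMA libraries as red circles above WT libraries as blue squares and stars marking genes past an edgeR adjusted p of 0.05. Within the sterol arm, drawn in pathway order, Mvd, Fdft1 and Lss lie to the right of all WT libraries, and Mvk, Fdps and Dhcr7 to the left.

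The sterol arm did not move as a block: enzymes that act on neighbouring steps went in opposite directions. Of 18 genes, 5 rose, 7 fell and 6 did not pass. The share that passed was 66.7%, beside 54.9% of all genes tested. The median log2 fold change was -0.26 in the sterol arm and 0.0060 over all genes tested. Genes whose CPM ranges did not overlap between the groups numbered 9 in the sterol arm and were 44.2% of all genes.

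The steps to isopentenyl diphosphate hold a fall and a rise. Hmgcs1, which makes HMG-CoA at the head of the pathway, had 58.2, 60.1, 68.0 and 53.3 CPM in SMA and 65.6, 55.8, 59.4, 56.9 and 66.5 CPM in WT, overlapping, with a log2 fold change of -0.02 ± 0.088. An antisense gene, Gm48342, shares 12.1% of its exon bases. Mvk, mevalonate kinase, had 6.67, 6.15, 7.97 and 5.50 CPM in SMA and 12.1, 11.1, 10.4, 11.1 and 12.9 CPM in WT, and every SMA library lay below every WT library. It fell by 0.81 ± 0.12 (edgeR adjusted p = 1.27e-04), the deepest fall of the sterol arm. Pmvk, the kinase of the next step, averaged 12.3 ± 1.42 CPM in SMA and 13.1 ± 1.53 CPM in WT (SD, n = 4 and 5), with an edgeR adjusted p of 0.503.

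Mvd, which decarboxylates the product of Pmvk, had 35.5, 45.6, 39.6 and 24.4 CPM in SMA and 11.3, 11.4, 13.8, 13.2 and 12.1 CPM in WT. It rose by 1.55 ± 0.15 or 2.94-fold (edgeR adjusted p = 5.86e-06), with SMA 4 the lowest SMA library and still above the WT range. Idi1, the isomerase, averaged 10.4 ± 2.95 CPM in SMA and 13.2 ± 1.72 CPM in WT, and its log2 fold change of -0.35 ± 0.17 did not pass (edgeR adjusted p = 0.0955). SMA 3 held 14.6 CPM of Idi1 against 7.97 to 9.73 CPM in the other SMA libraries, and without SMA 3 Idi1 passed as a fall. Fdps, which makes farnesyl diphosphate, had 8.73, 7.72, 9.59 and 8.34 CPM in SMA and 12.5, 10.4, 10.5, 11.01 and 12.1 CPM in WT. It fell by 0.39 ± 0.098 (edgeR adjusted p = 0.00488). Gm43738, an annotated gene on the same strand, shares 26.7% of the exon bases of Fdps and was not analysed here, and sharing of reads was not tested.

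The 3 enzymes that turn farnesyl diphosphate into lanosterol alternated. Fdft1, squalene synthase and the entry to sterols proper (chromosome 14, 63145150 to 63179578, minus strand), had 110, 102, 92.8 and 90.9 CPM in SMA and 35.4, 29.8, 32.6, 31.8 and 32.0 CPM in WT. It rose by 1.61 ± 0.080 or 3.06-fold (edgeR adjusted p = 6.93e-08), ranked 27 by p among 15873 genes. Its exons overlap those of Ctsb, the cathepsin B gene on the opposite strand, over 774 bases or 18.3% of the exon bases of Fdft1. Ctsb had 293 CPM in SMA and 330 CPM in WT on average and did not pass (log2 fold change -0.17 ± 0.076, edgeR adjusted p = 0.0742). The strand setting of the counting is not given in the sources used here, and sharing of reads was not tested.

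Sqle, squalene epoxidase and a known point of control of the pathway, had 3.38, 3.35, 5.34 and 3.09 CPM in SMA and 6.07, 5.68, 4.69, 5.28 and 5.81 CPM in WT. SMA 3 lay within the WT range and the other SMA libraries below it. It fell by 0.54 ± 0.17 (edgeR adjusted p = 0.0171), a call that was lost with sex as a covariate, under scaling to total counts, and without SMA 1, SMA 2 or SMA 4. Lss, lanosterol synthase, had 13.6, 14.1, 13.0 and 12.9 CPM in SMA and 6.64, 6.001, 6.44, 5.52 and 4.61 CPM in WT. It rose by 1.20 ± 0.11 or 2.30-fold (edgeR adjusted p = 3.67e-06), with no overlap between the groups.

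Among the genes that convert lanosterol to cholesterol, Tm7sf2 and Hsd17b7 rose, Nsdhl, Sc5d and Dhcr7 fell, and Cyp51, Msmo1 and Ebp had no call. Tm7sf2, a sterol C14 reductase, had 9.79, 6.60, 9.78 and 8.53 CPM in SMA and 5.76, 5.48, 4.50, 6.01 and 5.49 CPM in WT, a rise of 0.67 ± 0.13 (edgeR adjusted p = 0.00125). Vps51 on the same strand shares 12.1% of its exon bases and rose by 0.78 ± 0.082 (edgeR adjusted p = 1.03e-05), and sharing of reads was not tested. Hsd17b7, a 3-ketosterol reductase, had 6.58, 6.74, 5.67 and 5.08 CPM in SMA and 4.57, 4.55, 4.38, 4.47 and 4.22 CPM in WT, a rise of 0.44 ± 0.11 (edgeR adjusted p = 0.00637). Both rises had no overlap between the groups.

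Nsdhl, a sterol dehydrogenase, averaged 6.37 ± 1.09 CPM in SMA and 8.48 ± 1.10 CPM in WT and fell by 0.41 ± 0.14 (edgeR adjusted p = 0.0225). Dhcr7, the reductase of a last step to cholesterol, had 12.0, 13.8, 13.6 and 11.4 CPM in SMA and 16.5, 14.6, 16.2, 16.9 and 16.9 CPM in WT, with a fall of 0.35 ± 0.088 (edgeR adjusted p = 0.00524). Sc5d, the C5 desaturase, averaged 4.37 ± 0.432 CPM in SMA and 6.11 ± 1.61 CPM in WT, and its fall of 0.48 ± 0.18 (edgeR adjusted p = 0.0353) lost its call under 10 of 18 settings. Cyp51, Msmo1 and Ebp, a demethylase, a methyl oxidase and an isomerase, had log2 fold changes of -0.31 ± 0.18, -0.07 ± 0.21 and -0.20 ± 0.11 and no call. Without SMA 3 Cyp51 also passed as a fall. Stard4, which carries cholesterol between membranes and is a known SREBP-2 target, had 2.61, 4.02, 3.91 and 2.50 CPM in SMA and 3.91, 6.45, 5.83, 5.56 and 6.06 CPM in WT, a fall of 0.77 ± 0.19 (edgeR adjusted p = 0.00460) with WT 1 inside the SMA range.

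The SMA libraries differed among themselves in this arm. SMA 3 was the highest SMA library for 9 of the 18 sterol genes and SMA 4 the lowest for 13. Such counts were not taken over all genes tested. Without SMA 3, 5 rose and 8 fell, and without SMA 4, 5 rose and 4 fell. With sex as a covariate 5 rose and 4 fell, and under scaling to total counts alone, which raised the median of all genes by 0.23 on the log2 scale, 5 rose and 1 fell. The 5 rises kept their calls under all 18 settings, and so did the fall of Mvk. Fdps, Dhcr7 and Stard4 lost theirs under scaling to total counts alone, Nsdhl and Sqle under 5 settings each and Sc5d under 10.

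**Figure D2:**
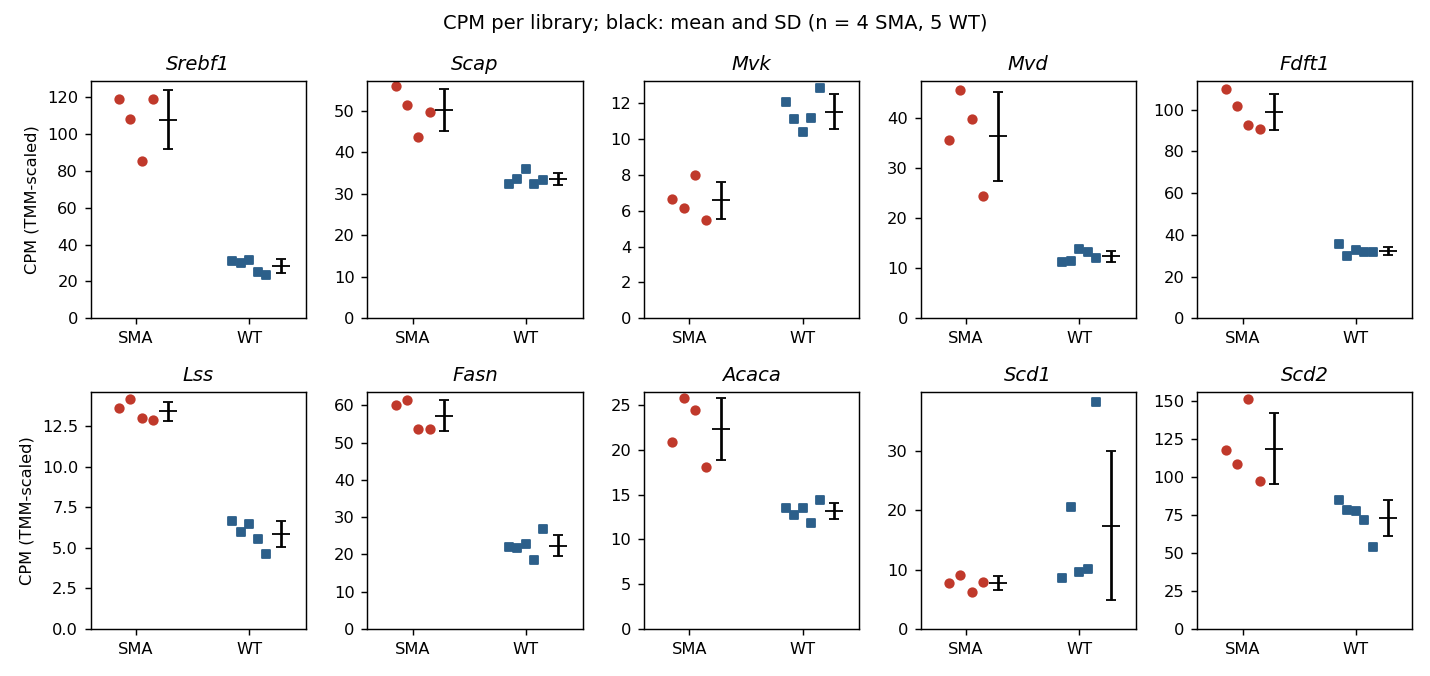
CPM of 10 members in each SMA library (red circles) and WT library (blue squares), with the mean and SD of each group in black (n = 4 and 5); each panel has its own axis from 0. Srebf1, Scap, Mvd, Fdft1, Lss, Fasn, Acaca and Scd2 do not overlap with SMA higher, Mvk does not overlap with SMA lower, and Scd1 overlaps, with WT 5 at 38.3 CPM.

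In the fatty acid arm Acss2, Acly, Acaca and Fasn, which supply acetyl-CoA and build the chain, rose, as did Scd2. Scd1 and Me1 fell, and elongases and front-end desaturases had no call. Of 11 genes, 5 rose, 2 fell and 4 did not pass, or 63.6% that passed, beside 54.9% of all genes. The median log2 fold change of the arm was -0.06. Fasn, fatty acid synthase (chromosome 11, 120805846 to 120824547, minus strand), had 60.1, 61.5, 53.6 and 53.8 CPM in SMA and 21.9, 21.7, 22.8, 18.6 and 26.8 CPM in WT. It rose by 1.36 ± 0.099 or 2.56-fold (edgeR adjusted p = 7.54e-07) with no overlap.

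Acaca, the acetyl-CoA carboxylase that makes malonyl-CoA for synthesis, had 20.9, 25.7, 24.5 and 18.1 CPM in SMA and 13.5, 12.7, 13.5, 11.8 and 14.4 CPM in WT, a rise of 0.76 ± 0.11 (edgeR adjusted p = 1.09e-04). Acss2, which makes acetyl-CoA from acetate, had 38.4, 45.1, 43.2 and 36.9 CPM in SMA and 29.1, 28.2, 26.1, 27.8 and 33.1 CPM in WT, a rise of 0.50 ± 0.089 (edgeR adjusted p = 5.23e-04). Both had every SMA library above every WT library. Acly, which makes acetyl-CoA from citrate, had 34.3, 37.4, 34.4 and 35.0 CPM in SMA and 27.7, 34.2, 30.3, 31.4 and 30.6 CPM in WT. Its rise of 0.19 ± 0.074 (edgeR adjusted p = 0.0429) was small, and the call was lost under 11 of 18 settings.

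Me1, malic enzyme and a source of NADPH for synthesis, went the other way. It had 38.4, 33.6, 33.8 and 37.8 CPM in SMA and 50.1, 39.7, 54.6, 47.4 and 67.1 CPM in WT, with no overlap. It fell by 0.53 ± 0.13 (edgeR adjusted p = 0.00426), and kept its call under all 18 settings.

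The stearoyl-CoA desaturases Scd1 and Scd2, which make monounsaturated fatty acids, had opposite calls. Scd2 had 118, 109, 151 and 97.6 CPM in SMA and 84.8, 78.4, 77.7, 72.1 and 53.8 CPM in WT, a rise of 0.70 ± 0.14 (edgeR adjusted p = 0.00156) with no overlap. Scd1 had 7.70, 9.11, 6.18 and 7.94 CPM in SMA and 8.62, 20.5, 9.57, 10.1 and 38.3 CPM in WT, so SMA 2 lay inside the WT range. It fell by 1.17 ± 0.40 (edgeR adjusted p = 0.0256). The call was lost without SMA 1, 3 or 4, with limma-voom, with sex as a covariate, under scaling to total counts and with WT 5 and SMA 3 both left out, where the log2 fold change was -0.58. The count ratio of Scd1 to Scd2 was 0.0654, 0.0836, 0.0408 and 0.0814 in SMA and 0.102, 0.261, 0.123, 0.141 and 0.711 in WT. Every SMA ratio lay below every WT ratio (log2 difference -1.62; p = 0.0159 by a two-sided exact permutation test, 0.0317 adjusted over 4 ratios). The unadjusted exact permutation p was 0.0794 with the ratio on a linear scale and 0.0536 to 0.0714 without any 1 of the SMA libraries. The call was lost in each case. Without any 1 of the WT libraries the exact permutation p was 0.0286, or 0.0571 adjusted over 4 ratios. On adjusted p, the call was thus lost without any 1 library. Without WT 5 the log2 difference was -1.17. The genes are similar in sequence and neighbours on chromosome 19, and how reads were divided between them was not tested.

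Markers of other cell types are set beside the desaturases. Adipoq, which encodes the adipocyte hormone adiponectin, had 1.06 to 5.17 CPM in SMA and 2.29 to 13.3 CPM in WT, overlapped and did not pass (edgeR adjusted p = 0.190). Plin1, which coats fat droplets, had 0.671 to 3.62 CPM in SMA and 1.503 to 13.4 CPM in WT. WT 5 was the highest library for both, as for Scd1. Among SMA libraries both were highest in SMA 4, but Scd1 was highest in SMA 2. Adipoq and Plin1 were named after their values were seen. In the rest of the white adipocyte list, Lep, Cidec, Retn and Adig were also highest in WT 5. Cfd was highest in SMA 4 and Fabp4 in SMA 3. Car3 and Slc7a10 went the other way, lowest of all libraries in WT 5 at 227 and 2.27 CPM. Of the 10 white adipocyte markers 2 rose and 2 fell by edgeR, and 1 fell by DESeq2 and by limma-voom. By edgeR 27.7% of all genes tested rose and 27.2% fell. The white adipocyte markers summed to 1287 to 1392 CPM in SMA and 577 to 869 CPM in WT. Most of it was Car3, which muscle fibres also express, and Fabp4, which capillaries also express. Car3 averaged 744 CPM in SMA and 319 CPM in WT, and Fabp4 571 CPM in SMA and 387 CPM in WT. Lep had no count in 2 of the 4 SMA libraries. Of the 8 brown adipocyte markers 2 rose and 3 fell, with sums of 519 to 760 CPM in SMA and 505 to 827 CPM in WT, and Ucp1 was at 0.315 to 1.93 CPM in SMA and 11.3 to 119 CPM in WT. The most abundant of that list, also expressed in muscle, were Cox8b in SMA and Cox7a1 in WT. Cox8b rose, with 388 CPM in SMA and 265 CPM in WT, and Cox7a1 fell, with 170 CPM in SMA and 289 CPM in WT.

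The 8 Schwann cell and myelin markers reported here, among them Mbp of the myelin sheath, all rose by edgeR, beside 27.7% of all genes tested. These markers summed to 1141, 833, 1248 and 587 CPM in SMA 1 to 4 and 508, 357, 303, 339 and 215 CPM in WT 1 to 5. The SMA libraries stood in the same order for this sum as for Scd2, highest in SMA 3 and lowest in SMA 4, and WT 5 was lowest in both. In the sterol arm SMA 3 was the highest SMA library for 9 of the 18 genes, and SMA 4 the lowest for 13. Among WT libraries, WT 1, highest for the marker sum, was highest for 6 sterol genes. WT 5, lowest for the marker sum, was highest for 5 sterol genes. Such counts were not taken over all genes tested, and SMA 3 also stood apart on the second principal component. The part of adipocyte or Schwann cell RNA in the Scd1, Scd2 and sterol arm values was not tested. Fibroblast markers summed to 1837 to 2726 CPM in SMA and 3167 to 5642 CPM in WT, endothelial markers to 559 to 660 CPM in SMA and 561 to 699 CPM in WT, and macrophage markers to 54.3 to 72.9 CPM in SMA and 96.2 to 124 CPM in WT. Col3a1 was the most abundant fibroblast marker, with 1568 CPM in SMA and 2450 CPM in WT. Among endothelial markers, Pecam1 was the highest in SMA and did not pass, with 186 CPM in SMA and 187 CPM in WT, and Cdh5 was the highest in WT and fell, with 172 CPM in SMA and 215 CPM in WT. Among macrophage markers, Csf1r was the highest in SMA and did not pass, with 18.3 CPM in SMA and 21.0 CPM in WT, and Mrc1 was the highest in WT and fell, with 15.5 CPM in SMA and 51.1 CPM in WT.

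The elongases and front-end desaturases of the arm had no call. Elovl5, which extends polyunsaturated chains, averaged 29.4 ± 3.51 CPM in SMA and 31.7 ± 2.88 CPM in WT, and Elovl6, which extends palmitate, 5.53 ± 1.43 CPM in SMA and 6.76 ± 0.897 CPM in WT (SD, n = 4 and 5). The count ratio of Elovl6 to Elovl5 averaged 0.187 ± 0.0315 in SMA and 0.217 ± 0.0470 in WT (exact permutation test, p = 0.294, adjusted p = 0.294). Fads1, the delta-5 desaturase, averaged 20.2 ± 3.03 CPM in SMA and 22.4 ± 3.08 CPM in WT. Fads2, the delta-6 desaturase, averaged 5.94 ± 0.271 CPM in SMA and 6.18 ± 1.02 CPM in WT. Their edgeR adjusted p-values lay between 0.160 for Elovl6 and 0.738 for Fads2. Without SMA 3 Elovl6 passed as a fall, at -0.48 on the log2 scale (edgeR adjusted p = 0.0118). With WT 5 and SMA 3 both left out Elovl6 and Fads1 both passed as falls, at -0.48 and -0.32.

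**Figure D3:**
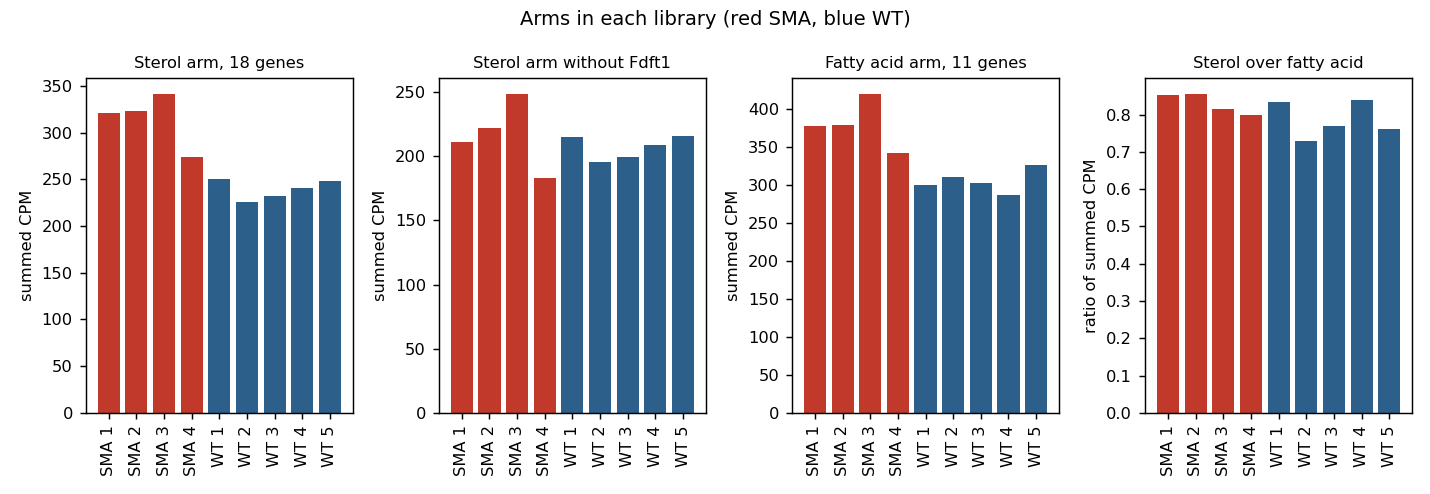
Bars give, for each SMA library (red) and WT library (blue), the summed CPM of the sterol arm, the same sum without Fdft1, the summed CPM of the fatty acid arm, and the ratio of the sterol to the fatty acid sum. The sums of both arms are higher in all SMA libraries, but the sterol sum without Fdft1 and the ratio overlap between the groups.

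Set side by side, both arms had a higher summed level in every SMA library than in any WT library. The sterol sum was 321, 324, 341 and 274 CPM in SMA and 250, 226, 232, 240 and 248 CPM in WT, with means of 315 ± 28.9 CPM in SMA and 239 ± 10.5 CPM in WT (SD, n = 4 and 5). The fatty acid sum was 377, 379, 419 and 342 CPM in SMA and 300.2, 309, 302, 286 and 326 CPM in WT, with means of 379 ± 31.3 CPM in SMA and 305 ± 14.5 CPM in WT. The SMA mean was 1.32 times the WT mean for the sterol arm and 1.24 times for the fatty acid arm. The sterol to fatty acid ratio was 0.799 to 0.854 in SMA and 0.729 to 0.840 in WT, and overlapped. These sums are descriptions, with no test, and long or abundant transcripts weigh most in them.

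A few genes carried much of the difference in these sums. Fdft1 alone was 31.5% ± 3.08 of the sterol sum in SMA and 13.5% ± 0.557 in WT. Without it, a choice made after seeing the data, the sterol sum was 183 to 248 CPM in SMA and 196 to 216 CPM in WT, which overlap. Without Fdft1, Mvd and Lss it averaged 167 ± 21.1 CPM in SMA and 189 ± 9.84 CPM in WT. These were the sterol genes that rose most, so leaving them out had to lower SMA relative to WT. Without Scd1, Scd2 and Fasn the fatty acid sum averaged 195 ± 10.5 CPM in SMA and 192 ± 9.12 CPM in WT. Scd2 and Fasn are abundant and rose, so leaving these genes out also had to lower SMA relative to WT.

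**Figure D4:**
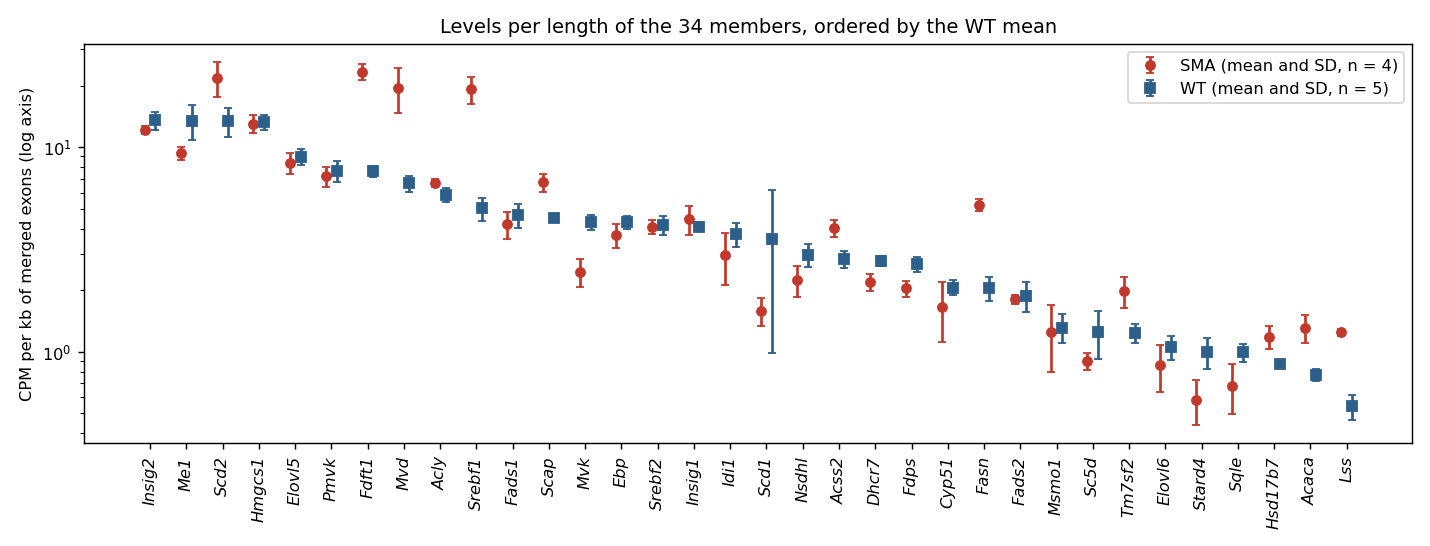
Mean level and SD of each member per kilobase of merged exons, on a log axis, in SMA (red circles, n = 4) and WT (blue squares, n = 5), ordered by the WT mean. Fdft1, Mvd and Srebf1, at places 7, 8 and 10 of the WT order, stand beside Scd2 at the top in SMA.

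Per kilobase of merged GENCODE M21 exons, levels of different genes can be set side by side, although merging all annotated transcripts makes some models long, as for Lss with 10787 bases. In SMA the highest were Fdft1 at 23.4 ± 2.06, Scd2 at 21.8 ± 4.25, Mvd at 19.5 ± 4.79 and Srebf1 at 19.2 ± 2.82 CPM per kb (SD, n = 4). Neighbours in this order lay within each other's spread. In WT the highest were Insig2 at 13.5 ± 1.42, Me1 at 13.5 ± 2.64, Scd2 at 13.4 ± 2.16 and Hmgcs1 at 13.2 ± 1.08 CPM per kb (SD, n = 5), also within each other's spread. Fdft1, Mvd and Srebf1 were at 7.65 ± 0.475, 6.65 ± 0.607 and 5.01 ± 0.657 CPM per kb in WT. The lowest members were Stard4 at 0.584 ± 0.147 CPM per kb in SMA and Lss at 0.542 ± 0.0754 CPM per kb in WT.

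**Figure D5:**
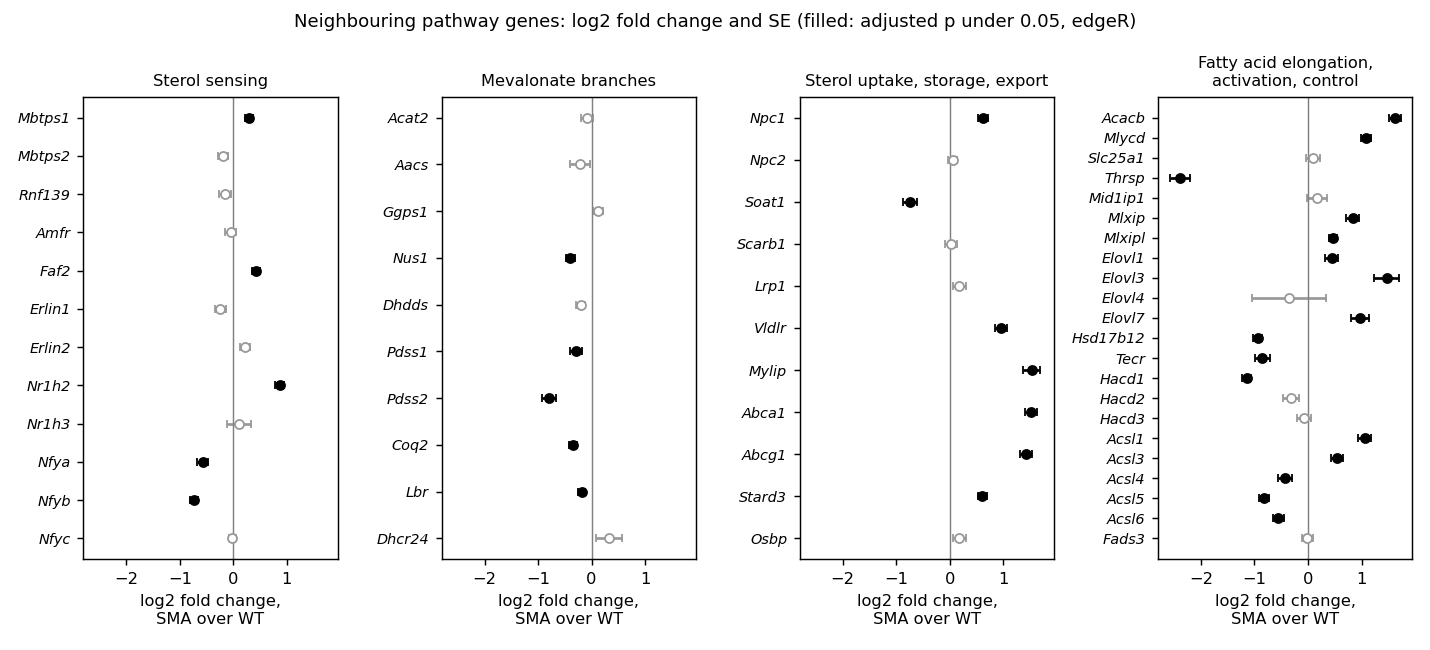
Log2 fold change of SMA over WT with its SE for 55 neighbouring genes in 4 lists, filled where the edgeR adjusted p was under 0.05. Abca1, Abcg1 and Mylip lie between 1.43 and 1.53, and Thrsp is the lowest at -2.40.

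The sterol efflux pump genes Abca1 and Abcg1 rose. Of 11 genes of sterol uptake, esterification and export, 6 rose, 1 fell and 4 did not pass, with a median log2 fold change of 0.61. The share that passed was 63.6%, beside 54.9% of all genes tested. The share that rose was 54.5%, beside 27.7%, and the share that fell was 9.09%, beside 27.2%. Both pumps are known LXR targets, and rose by 1.51 ± 0.11 for Abca1 and 1.43 ± 0.11 for Abcg1 (edgeR adjusted p = 7.71e-07 and 1.06e-06). Abca1 averaged 113 CPM in SMA and 39.7 CPM in WT, and Abcg1 15.02 CPM in SMA and 5.58 CPM in WT. Mylip, an LXR-induced ubiquitin ligase for lipoprotein receptors, rose by 1.53 ± 0.15, and the cholesterol-esterifying enzyme gene Soat1 fell by 0.74 ± 0.13, both named after their values were seen. LXR activity was not measured, and its part in these values or in those of Srebf1 was not tested.

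Of 12 genes of sterol sensing and SREBP processing, 3 rose, 2 fell and 7 did not pass, so 41.7% passed, beside 54.9% of all genes. Nr1h2, which encodes LXR-beta, rose by 0.86 ± 0.083 (edgeR adjusted p = 5.81e-06), with 61.0 CPM in SMA and 33.5 CPM in WT on average. Nr1h3, which encodes LXR-alpha, had a log2 fold change of 0.11 ± 0.23 and no call (edgeR adjusted p = 0.690), with 5.60 CPM in SMA and 5.17 CPM in WT. Nfyb, a subunit of the CCAAT-binding factor NF-Y, fell by 0.74 ± 0.075 (edgeR adjusted p = 8.61e-06), with 28.2 CPM in SMA and 47.1 CPM in WT. Of the other subunits, named after their values were seen, Nfya fell by 0.57 ± 0.10, and Nfyc had a log2 fold change of -0.02 ± 0.068 and no call.

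Of 10 genes of mevalonate branches and late sterol steps, 0 rose, 5 fell and 5 did not pass by edgeR, with 0 rises also at an unadjusted p under 0.05 and by DESeq2 and limma-voom. The share that passed was 50%, beside 54.9% of all genes tested, and the share that fell was also 50%, beside 27.2%. Pdss2, a subunit of the enzyme that makes the ubiquinone side chain, fell by 0.79 ± 0.13 and Nus1, of dolichol synthesis, by 0.39 ± 0.083 (edgeR adjusted p = 2.81e-04 and 0.00169). Of 22 genes of fatty acid elongation, activation and control, 9 rose, 7 fell and 6 did not pass, so 72.7% passed, beside 54.9% of all genes. Acacb, the carboxylase whose malonyl-CoA curbs entry of fatty acids into mitochondria, rose by 1.62 ± 0.11, with 511 CPM in SMA and 166 CPM in WT (edgeR adjusted p = 5.33e-07). Thrsp, a thyroid hormone-responsive gene of lipogenic tissues, fell by 2.40 ± 0.19, with 8.45 CPM in SMA and 44.5 CPM in WT (edgeR adjusted p = 1.38e-06).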

How the data were processed

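RNA of hindlimb muscle was measured in 9 libraries. Per the labels' protocols, 200 ng of total RNA went into a stranded mRNA preparation, read as pairs of 75 bases. The submitters' processing notes list HTSeq 0.9.1, DESeq2 1.16.1 and the build mm10 without roles. Aligner, annotation and strand setting were not given in the sources used here. Counts deposited by the authors are whole numbers per gene, beside a second table whose signal equals the counts over library size factors (0.734 to 1.23, relative deviation at most 4.92e-07), not used further.

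In R 4.3.3 and edgeR 4.0.16, filterByExpr kept 15873 genes. TMM, the trimmed mean of M values, scaled the libraries, and a quasi-likelihood fit on group alone was adjusted by Benjamini-Hochberg over those genes, at a threshold of 0.05. The SE is the log2 fold change over the square root of F. Members, lists and tests were chosen with earlier results of these data known. Alternatives were other scalings and filters, DESeq2 1.42.0, limma 3.58.1 voom, sex as a covariate, libraries left out and a replicate block. Values per library are given for the regulators, the 5 members of each arm with the lowest adjusted p, and others that differ from their arm; from each neighbouring list the 2 genes with the lowest adjusted p are named, and from each marker list the most abundant, over both groups. Some items selected in this way are not reported here. Csf1r, Pecam1, Cox7a1, Fabp4, Adipoq, Plin1, Nr1h3 and Mbp were named after their values were seen. Levels per length used GENCODE M21 on GRCm38, the mm10 build. Promoters came from RefSeq on GRCm38.p6.

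In a test on simulated counts of 15873 genes for SMA against WT, 75 genes were changed 1.5-fold, 63 genes 2-fold and 62 genes 4-fold. Of these, 48%, 73.0% and 93.5% were recovered, and 10 unchanged genes were called. Far fewer genes changed there than the 54.9% that passed in the data. Benjamini-Hochberg adjustment is stricter where few genes change, so these shares do not give the recovery in the data. No pair of libraries within a group agreed within sampling noise (chi-square per degree of freedom 11.2 to 81.3).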

Additional observations from a re-analysis of the deposited data

Results flagged for a closer look

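Of 84 sets of 4 or 5 values examined, 5 had a library far from the rest of its group, where chance alone gives about 1 in 20. Insig2 had 39.4 CPM in SMA 1, against 42.9 to 43.4 CPM in the other SMA libraries, and 55.6 CPM in WT 5, against 43.7 to 45.4 CPM in the other WT libraries. Sqle had 5.34 CPM in SMA 3, against 3.09 to 3.38 CPM in the other SMA libraries. Elovl5 had 26.7 CPM in WT 1, against 31.7 to 33.6 CPM in the other WT libraries. The count ratio of Scd1 to Scd2 was 0.711 in WT 5, against 0.102 to 0.261 in the other WT libraries.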

How the results depend on the processing

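Of 756 comparisons of a gene's log2 fold change with an alternative setting, 685 kept the direction and side of the threshold, 42 lost a call, 9 gained one and 20 turned sign, all of the last in genes with no call. The calls of Srebf1, Scap, Mvk, Mvd, Fdft1, Lss, Tm7sf2, Hsd17b7, Acaca, Fasn, Scd2, Acss2 and Me1 held under all 18 settings. The largest shift came from scaling to total counts alone, which raised the median of all genes by 0.23: 2164 genes fell, with 1 fall in the sterol arm (median -0.020), 1 in the fatty acid arm (median 0.17) and 2 among all members. Under it the log2 fold changes of Srebf2 (0.21), Insig2 (0.092), Hmgcs1 (0.22), Pmvk (0.14), Msmo1 (0.17), Ebp (0.028), Elovl5 (0.13), Fads1 (0.077) and Fads2 (0.17) turned positive, and 74.7% of all calls were rises, beside 50.4% under TMM. With sex as a covariate 4 sterol genes, 1 fatty acid gene and 5 members fell, and Msmo1 was at 0.0019; with limma-voom 1 fatty acid gene fell. With single libraries left out, 4 to 8 sterol genes, 1 to 2 fatty acid genes and 5 to 10 members fell, Srebf2 ranged from -0.082 to 0.019, Hmgcs1 from -0.088 to 0.030, Msmo1 from -0.34 to 0.081 and Fads2 from -0.13 to 0.0020. For the sterol arm and all members the lowest counts came without SMA 4 and the highest without SMA 3; 1 fatty acid gene fell without SMA 1 or SMA 4.

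The log2 difference of the Scd1 to Scd2 ratio was -1.98 on a linear scale, -1.87 to -1.17 with single libraries left out, where leaving out any 1 of the SMA libraries ended the call, and -0.94 with WT 5 and SMA 3 both left out, where the two-sided exact permutation p, unadjusted in all these comparisons, was 0.0571. The log2 difference of the sterol to fatty acid ratio was 0.08, and moved to -0.26 without Fdft1 (chosen after seeing the data), -0.11 as mean log2 CPM and 0.36 without Scd1, Scd2 and Fasn. Fdft1, Scd2 and Fasn rose, so leaving them out had to move the ratio in these directions. Causes of the other shifts were not tested. Same-numbered libraries had correlations from -0.048 to 0.118, within the range of -0.318 to 0.174 for libraries of different numbers. No SMA library correlated best with the WT library of its own number. These values gave no sign of pairing by number, but 4 such pairs are too few to exclude a shared litter or batch. With a replicate block 11 members rose and 7 fell, Hmgcs1 was at 0.0085, and the ratio differences were 1.89 for Srebf1 to Srebf2 and -1.17 for Scd1 to Scd2, each at the smallest exact p that 4 pairs allow, 0.125. At this depth and number of libraries, log2 differences near the SE of the members without a call could not be resolved.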
